A study of Mus musculus with 12 samples.

Results

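The colon of mice that lack interleukin-10 but keep STING was compared with the wild-type colon across all genes. The members were chosen by genotype label alone: 3 arrays of the genotype IL10-/- STING+/+ (called IL10KO) and 3 of the genotype IL10+/+ STING+/+ (called WT), so 6 of the 12 arrays of the series. The other 6 arrays are 3 of IL10+/+ STING-/- (called SKO) and 3 of IL10-/- STING-/- (called DKO). They enter only the shared estimate of the spread and the comparison of the IL-10 difference with and without STING. Each array holds biotin-labelled cDNA made from total RNA of colon. No treatment, age or segment of colon is given in the labels used here. The labels do not say that each array is a separate animal, so the p-values measure the spread between these samples, which may in part be technical.

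Interleukin-10 is a cytokine made by regulatory T cells, macrophages and B cells that signals through a receptor on myeloid and other cells and through STAT3 to damp inflammatory gene expression. Mice without it develop colitis driven by the gut microbiota. STING, encoded by Sting1, is an adaptor on the endoplasmic reticulum that passes on the detection of cytosolic DNA by cGAS and turns on type I interferon and NF-kB target genes. In colitis, neutrophils and monocytes enter the mucosa, the epithelium secretes antimicrobial lectins, matrix-degrading enzymes are released and differentiated absorptive cells are lost.

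Signals are log2 values, so a difference of 1 is a 2-fold change, and array medians lay between 4.80 and 5.02, with lower quartiles between 3.45 and 3.72. The table carries no detection calls, so a signal near or below the lower quartile is called dim. Precision is limited by having 3 arrays in a group. Within WT the arrays correlated at 0.985 to 0.989 across genes, within IL10KO at 0.976 to 0.982 and between them at 0.961 to 0.975, where genes are not independent replicates. The labelled tissue was borne out by bright colon epithelial genes: Muc2, the main mucin of the colon, read 12.56, 12.72 and 12.91 in WT and 12.65, 12.39 and 12.43 in IL10KO, and Slc26a3, its chloride-bicarbonate exchanger, read 11.87, 11.72 and 11.81 and 10.83, 11.38 and 10.30. Il10 itself was not lower in the knockout. Its signal was 3.65, 3.59 and 3.80 in the 3 WT arrays and 4.59, 4.87 and 5.47 in the 3 IL10KO arrays, a difference of 1.29 ± 0.19, adjusted p 0.00139 (differences are IL10KO minus WT on the log2 scale ± SE from limma, n = 3 arrays in each group, and p is adjusted by Benjamini-Hochberg). The position of its probes relative to the deletion is not known here, so the signal is no check of the genotype.

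Sting1 goes against the label of 1 array. The 3 WT arrays read 7.51, 6.40 and 4.56 and the 3 IL10KO arrays 6.87, 8.09 and 7.33, while the 6 arrays of STING-/- genotypes lay between 4.13 and 4.40. WT replicate 3, at 4.56, was therefore near the knockout level, and its values correlated at 0.997 across genes with SKO replicate 1 against 0.985 and 0.987 with the other WT arrays. WT replicate 3 below means the array labelled so, and several results that rest on it are given without it too. The Sting1 difference of 1.27 ± 0.52, adjusted p 0.141 did not pass the test, and without that array it was 0.47 (adjusted p 0.435).

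Genes of other tissues also stood apart between arrays. Pancreatic acinar enzymes had a mean signal over 26 genes of 8.22, 10.65 and 5.80 in WT and 5.52, 5.34 and 5.41 in IL10KO, with the other 6 arrays at 5.42 to 5.78. WT replicates 1 and 2 were high and the other arrays low. Genes of stratified squamous epithelium and sebaceous gland averaged 4.52, 4.53 and 4.55 in WT and 5.22, 6.64 and 6.83 in IL10KO over 38 genes. Skeletal muscle genes averaged 4.92, 5.01 and 5.01 and 5.60, 6.06 and 6.90 over 21. In both of these lists every IL10KO array lay above every WT array, with IL10KO replicates 2 and 3 highest. The other 6 arrays lay at 4.49 to 5.10 for the squamous list and at 4.91 to 5.69 for skeletal muscle. The latter range reaches above IL10KO replicate 1. The part of neighbouring tissue in the results below was not tested.

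**Figure D1:**
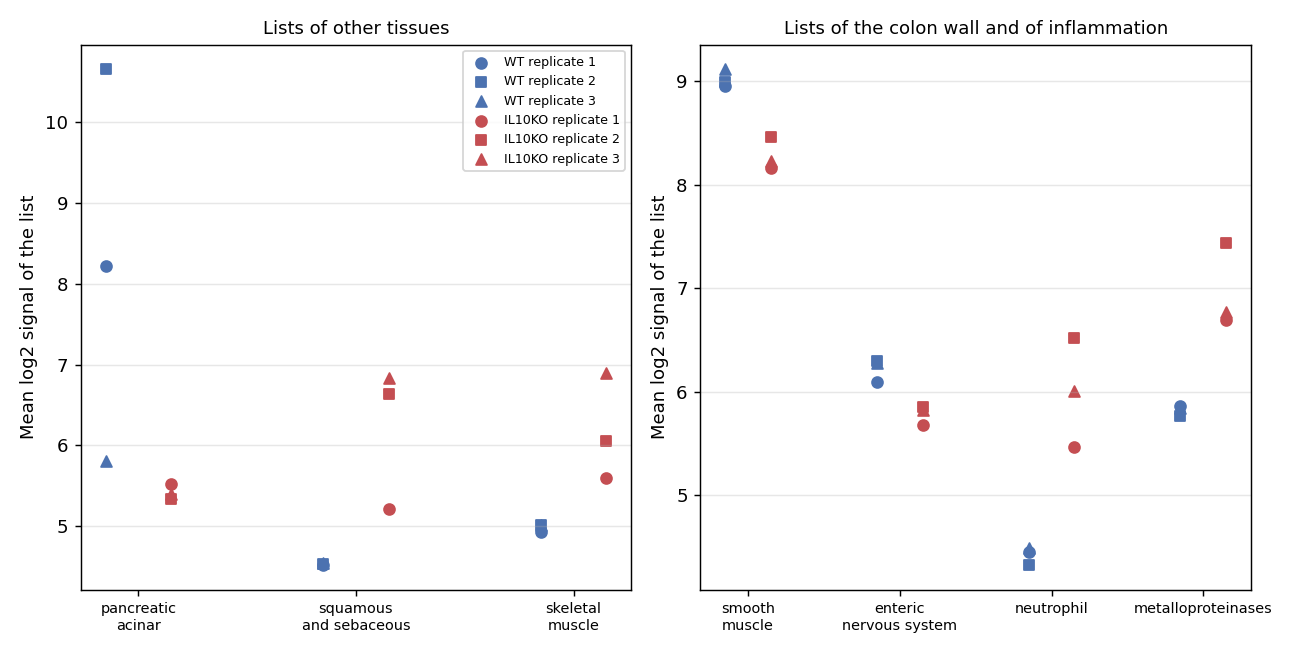
Mean log2 signal of gene lists in each array (y axis), with WT in blue and IL10KO in red and 1 marker shape per replicate; the left panel shows lists of other tissues and the right panel lists of the colon wall and of inflammation. Acinar genes are high in WT replicates 1 and 2 (8.22 and 10.65), squamous and skeletal muscle genes are higher in all IL10KO arrays, smooth muscle genes are lower in all IL10KO arrays, and neutrophil and metalloproteinase genes are higher in all of them.

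Across 22180 genes, 1805 (8.14%) differed between IL10KO and WT at an adjusted p under 0.05 in limma's moderated test after Benjamini-Hochberg adjustment over all genes. Of these 693 (3.12%) were higher and 1112 (5.01%) were lower in IL10KO, and these shares are the background for every list below. The 3 IL10KO arrays all lay above or all below the 3 WT arrays for 1777 of the 1805 called genes, against 14% of all genes above and 16% below. The number of calls depended on single arrays. Omission of WT replicate 3 gave 888 calls (4%), of which 358 (1.61%) were higher and 530 (2.39%) lower. Omission of WT replicate 1 gave 993 and of WT replicate 2 gave 783. Among knockout arrays, omission of replicate 3 gave 1102 and of replicate 2 gave 3070, and omission of replicate 1 gave 571 calls of lower signal. Of the 888 calls without WT replicate 3, 820 were among the 1805. All 1805 genes kept their sign, which omission of 1 array could not turn for the 1777 without overlap. A call is said here to have held where it was made with all arrays and in each of the 6 fits that left out 1 IL10KO or WT array, which 584 genes (2.63%) did, 240 higher (1.08%) and 344 lower (1.55%). Of the genes that held, 178 rises and 165 falls were at least 2-fold, 65 and 22 at least 4-fold, and 28 and 6 at least 8-fold.

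**Figure D2:**
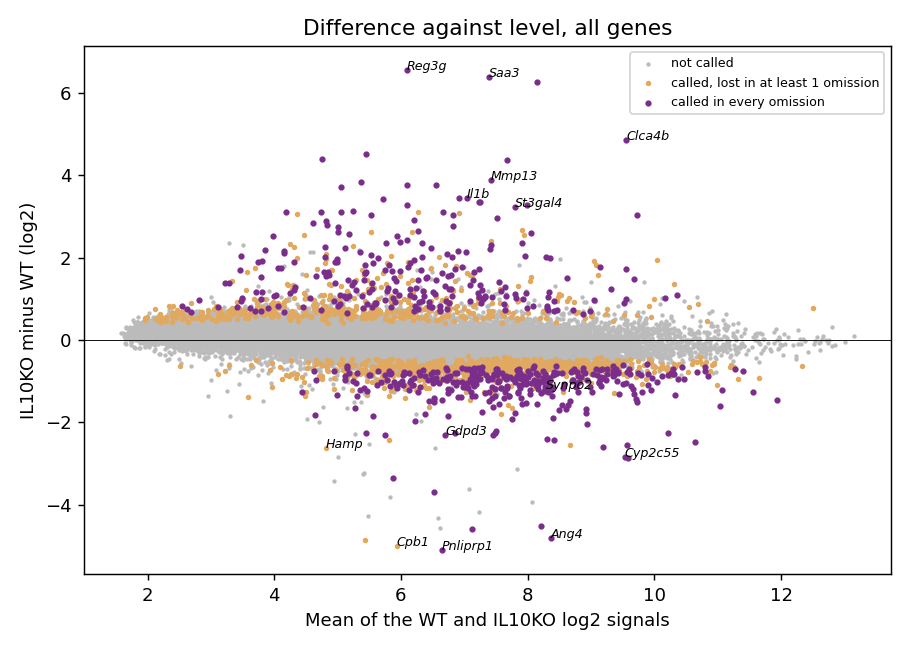
Difference IL10KO minus WT (y axis, log2) against the mean of both groups' log2 signals (x axis) for all 22180 genes, with calls that held in every omission in purple, other calls in orange and genes not called in grey. The 28 rises of at least 8-fold that held reach 6.56 (Reg3g), and the 6 falls of that size reach -5.11 (Pnliprp1).

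The largest rises that held were, in order, Reg3g, Saa3, Reg3b, Clca4b, Elovl3, S100a8, Hp, Mmp13, Retnlg, Krt4, Elovl4, Krt6a, Il1b, Mmp10 and Ppbp. They span secreted antimicrobial lectins, acute-phase proteins, neutrophil proteins, metalloproteinases and cytokines, with 4 genes (Elovl3, Krt4, Elovl4 and Krt6a) from the squamous and sebaceous list. The largest falls that held were Pnliprp1, Ang4, Pnliprp2, Clps, Klk1b22, Mptx1, Cyp2c55, Gsdmc2, Gsdmc3, Sycn, Cpm, Tppp3, Tppp, Gdpd3 and Klb. Among them Pnliprp1, Pnliprp2, Clps and Sycn belong to the acinar list.

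**Figure D3:**
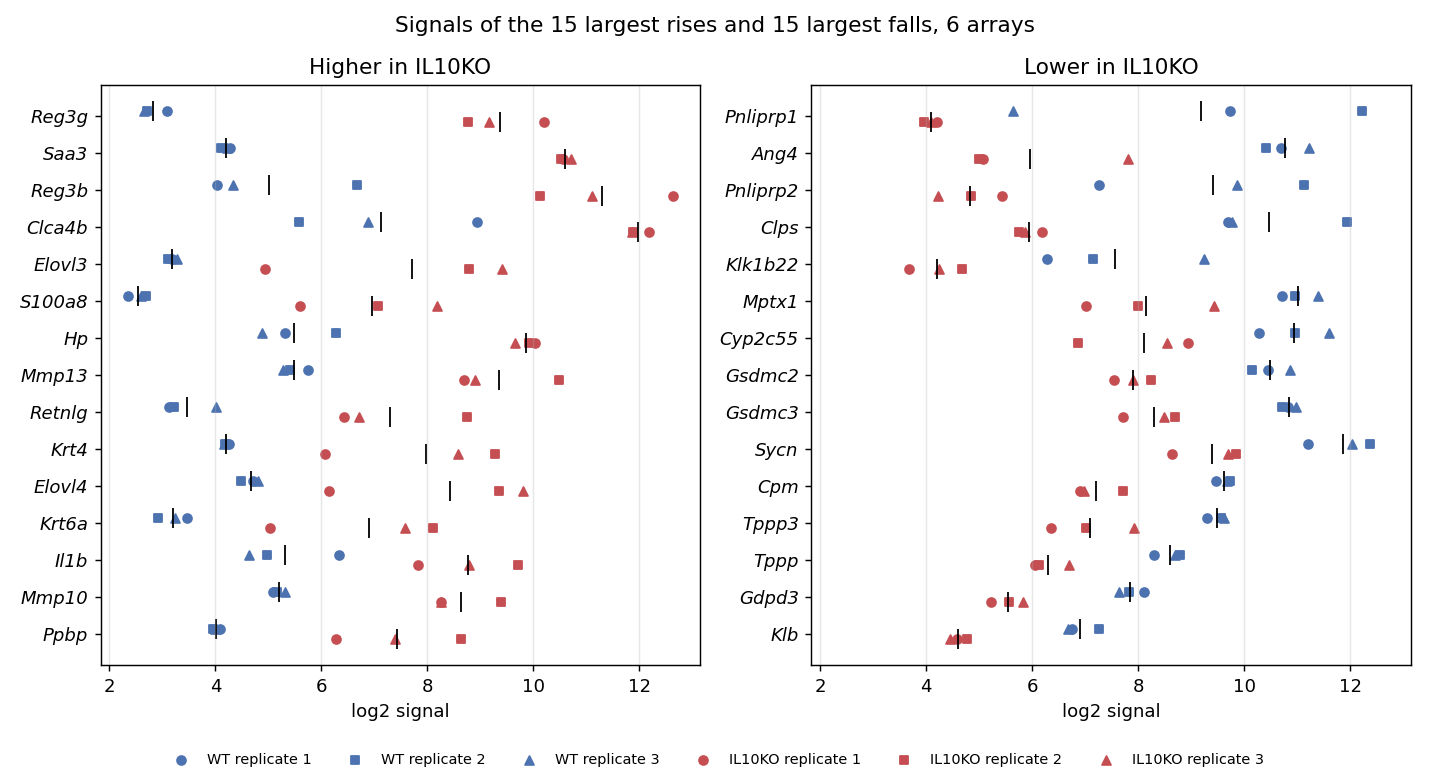
Log2 signal (x axis) of the 15 largest rises (left) and 15 largest falls (right) that held, with 3 WT arrays in blue, 3 IL10KO arrays in red, 1 marker shape per replicate and a black bar at each group mean. The genes shown were chosen so that the 3 IL10KO arrays lie beyond the 3 WT arrays. Elovl3 and Krt4 are lowest in IL10KO replicate 1 (4.94 and 6.07), and Pnliprp1 is lowest among WT in replicate 3 (5.64).

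Several acute-phase genes were among the largest rises. Saa3, a serum amyloid A protein made at sites of inflammation, read 4.28, 4.11 and 4.21 in WT and 10.55, 10.52 and 10.70 in IL10KO. It lay below the array medians in all WT arrays and far above them in all IL10KO arrays. Its difference of 6.39 ± 0.19 (adjusted p 3.4e-10) is a rise of 84-fold. Hp, haptoglobin, which binds free haemoglobin, rose from 5.31, 6.27 and 4.88 to 10.04, 9.92 and 9.64 (4.38 ± 0.35, adjusted p 1.79e-05). Lrg1, a leucine-rich glycoprotein of the acute phase, read 5.78, 5.53 and 5.36 and 8.63, 9.35 and 8.77 (3.36 ± 0.23, adjusted p 5.3e-06). The groups were far apart for each of these genes, of which Saa3 and Hp were picked for not overlapping. Lcn2, lipocalin-2, which binds the siderophores with which bacteria take up iron, read 6.24, 5.62 and 6.25 and 8.38, 10.02 and 8.62 (2.97 ± 0.34, adjusted p 0.000272). Ltf, lactoferrin, which binds iron itself, read 4.03, 4.17 and 3.82 and 5.999, 7.77 and 7.38 (3.04 ± 0.33, adjusted p 0.000187). For these 2 genes IL10KO replicate 1 was the lowest of its group and still above all WT arrays. Of 23 measured genes of the acute-phase list 8 rose and 0 fell, 6 of the rises held, and the count was 7 without WT replicate 3. The median over the list was 0.40, against 0.03 over all genes, and the other 15 members did not pass the test. Among the 8 rises, Serpina3n (1.95) and Cp (1.59, ceruloplasmin), did not hold.

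The promoters of Saa3 and Lcn2 are shown because both genes rose and held and their regions before the start carry the letters TTGCNNAA, a form of the element bound by C/EBP proteins; the gene of one such protein, Cebpb, also rose. Sequences are the 250 bases before the annotated start, from RefSeq on GRCm38.p6, written 5′ to 3′ on the strand of the gene, with matches on either strand in capitals.
Saa3 (chr7:46715677-46715926, minus strand): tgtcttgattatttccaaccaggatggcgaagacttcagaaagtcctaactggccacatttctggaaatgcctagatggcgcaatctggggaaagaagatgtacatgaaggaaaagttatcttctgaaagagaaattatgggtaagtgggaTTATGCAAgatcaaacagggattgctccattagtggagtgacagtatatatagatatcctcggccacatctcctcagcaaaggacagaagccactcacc
Lcn2 (chr2:32387740-32387989, minus strand): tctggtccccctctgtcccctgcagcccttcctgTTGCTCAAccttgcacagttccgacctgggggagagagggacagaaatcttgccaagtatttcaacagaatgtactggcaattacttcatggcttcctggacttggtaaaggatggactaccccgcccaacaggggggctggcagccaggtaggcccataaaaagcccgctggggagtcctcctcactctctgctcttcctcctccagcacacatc
The Saa3 match begins 99 bases before the start and the Lcn2 match 216 bases before it, and neither overlaps a match to the other motifs searched (GGNNTTTCC and TTCNNNGAA, both strands). Of 6 risen acute-phase genes whose promoter was found, 4 hold TTGCNNAA (Cp, Lcn2, Ltf and Saa3). So do 8 of 20 risen neutrophil genes and 5 of 8 risen metalloproteinase genes. Lcn2 and Ltf count in both the acute-phase and the neutrophil list, and Mmp8 in both the neutrophil and the metalloproteinase list. The letters are in 1 of 8 risen genes of the interleukin-6 list and 0 of 6 risen CXC chemokines, against 9.56% of all 32851 promoters. A match describes the letters only and is not evidence of binding. The letters were chosen after seeing the data, so these shares are no test. A gene counts if any of its promoters matches, whereas the share of all promoters counts each promoter.

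Epithelial defence genes moved in both directions. Reg3g and Reg3b, secreted C-type lectins that kill bacteria close to the epithelium, rose the most of this group. Reg3g read 3.09, 2.71 and 2.65 in WT, below the lower quartile of every array, and 10.20, 8.76 and 9.16 in IL10KO, a difference of 6.56 ± 0.28, adjusted p 2.33e-08. Reg3b read 4.03, 6.67 and 4.33 and 12.63, 10.12 and 11.11 (6.28 ± 0.63, adjusted p 0.000104). IL10KO replicate 1 was the highest array for both, and WT replicate 2 stood above the other WT arrays for Reg3b. Pla2g2a, a secreted phospholipase that attacks bacterial membranes, read 5.98, 5.02 and 5.74 and 9.28, 8.86 and 8.64 (3.35 ± 0.27, adjusted p 1.79e-05). Slpi, a secreted inhibitor of leukocyte proteases, read 6.42, 6.08 and 6.53 and 9.57, 9.73 and 9.57 (3.28 ± 0.17, adjusted p 1.99e-07). Lyz1, the lysozyme of Paneth cells, rose from 6.52, 6.13 and 6.17 to 8.18, 9.04 and 8.49 (2.30 ± 0.22, adjusted p 6.21e-05). Its close copy Lyz2, of macrophages, had a difference of 0.69 (adjusted p 0.154), and probes may not tell such copies apart, as also for Reg3b with Reg3g, Gsdmc2 with Gsdmc3, Krt6a with Krt6b and Stfa2l1 with other stefins.

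Other defence genes of the colon fell. Ang4, a ribonuclease with antibacterial activity made by goblet and Paneth cells, read 10.70, 10.42 and 11.22 in WT and 5.07, 5.01 and 7.80 in IL10KO, a difference of -4.82 ± 0.57, adjusted p 0.000332, with IL10KO replicate 3 well above the other 2 knockout arrays and still below all WT arrays. Mptx1, a mucosal pentraxin, read 10.72, 10.95 and 11.40 and 7.01, 8.01 and 9.43 (-2.87 ± 0.46, adjusted p 0.00272). Retnla (-2.44) and Reg4 (-0.93) also fell, but their calls did not hold. Of 30 measured genes of the list 8 rose and 4 fell, and without IL10KO replicate 1 the falls were 2; 7 rises and 2 falls held.

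The Reg3b promoter is shown because it is the only promoter of the 11 found for the 15 largest rises with the letters TTCNNNGAA, a form of the STAT element, which 7.02% of all promoters carry; Socs3, the feedback inhibitor of STAT3 signalling, is shown with it for the same letters.
Reg3b (chr6:78370635-78370884, plus strand): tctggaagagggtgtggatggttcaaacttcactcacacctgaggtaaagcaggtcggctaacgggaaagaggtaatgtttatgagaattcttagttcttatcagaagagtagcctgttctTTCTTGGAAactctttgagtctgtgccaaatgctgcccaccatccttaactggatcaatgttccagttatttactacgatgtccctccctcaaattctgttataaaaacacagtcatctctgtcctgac
Socs3 (chr11:117969367-117969616, minus strand): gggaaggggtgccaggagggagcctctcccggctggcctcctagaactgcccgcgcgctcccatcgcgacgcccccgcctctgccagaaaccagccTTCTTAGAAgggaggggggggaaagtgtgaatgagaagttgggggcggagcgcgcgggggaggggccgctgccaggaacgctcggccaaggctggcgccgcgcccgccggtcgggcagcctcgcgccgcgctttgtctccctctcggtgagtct
The matches, in capitals, begin 129 bases before the start in Reg3b and 154 in Socs3, and neither overlaps a match to the other motifs. Among risen genes whose promoter was found, 0 of 6 acute-phase, 2 of 20 neutrophil and 0 of 8 metalloproteinase genes carry TTCNNNGAA. So do 1 of 8 genes of the interleukin-6 list (Socs3) and 1 of 6 CXC chemokines (Cxcl14). These letters too were chosen after seeing the data, so these shares are no test.

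Neutrophil genes formed the list with the largest share of rises among those of blood cells. S100a8 and S100a9 encode the subunits of calprotectin, the main cytosolic protein of neutrophils. S100a8 read 2.35, 2.69 and 2.60 in WT and 5.60, 7.08 and 8.19 in IL10KO (4.41 ± 0.44, adjusted p 8.53e-05). S100a9 read 3.50, 3.68 and 3.30 and 5.48, 7.31 and 7.04 (3.11 ± 0.34, adjusted p 0.000194). Both were dim in all WT arrays and lowest among knockout arrays in IL10KO replicate 1. Retnlg, a resistin-like protein of neutrophils, read 3.13, 3.22 and 4.01 and 6.42, 8.74 and 6.71 (3.83 ± 0.50, adjusted p 0.000662). Clec4e, the glycolipid receptor Mincle, rose from 3.09, 3.12 and 3.001 to 4.81, 5.91 and 4.96 (2.16 ± 0.24, adjusted p 0.000198), and Cxcr2, the receptor that draws neutrophils along CXC chemokine gradients, from 4.86, 4.56 and 4.50 to 5.43, 7.86 and 6.63 (1.998 ± 0.42, adjusted p 0.012). The spread within IL10KO was wider than within WT for all of these.

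Of 32 measured neutrophil genes 21 rose (65.6%, against 3.12% of all genes) and 0 fell, with a median of 1.56. The rises included Fpr2 (1.91), a receptor for bacterial formyl peptides, Csf3r (1.18), the receptor for granulocyte colony-stimulating factor, Mmp8 (2.25), neutrophil collagenase, and Stfa2l1 (3.11), a stefin. The rises of 17 genes held, 18 were called without WT replicate 3 and 17 without IL10KO replicates 2 and 3, when IL10KO rests on 1 array and 1240 genes in all are called higher. Mpo, myeloperoxidase, at 0.29 (adjusted p 0.431), and Elane, neutrophil elastase, at 0.14 (adjusted p 0.574), did not pass the test. In such whole-tissue samples more cells of a type and more RNA per cell cannot be told apart.

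Chemokines that attract neutrophils rose with them. Cxcl5, Cxcl3, Cxcl2, Cxcl1 and Ppbp, which is cut to CXCL7, are all ligands of CXCR2. Ppbp read 4.09, 3.96 and 3.99 in WT and 6.28, 8.64 and 7.38 in IL10KO (3.42 ± 0.43, adjusted p 0.000493). Cxcl5 read 5.50, 4.95 and 5.86 and 7.03, 9.06 and 8.53 (2.77 ± 0.42, adjusted p 0.00211). Cxcl2 read 3.93, 4.29 and 3.92 and 5.15, 6.01 and 5.63 (1.55 ± 0.21, adjusted p 0.00105). In each the highest array was IL10KO replicate 2 and the lowest knockout array was replicate 1. Cxcl3 rose by 2.04 and Cxcl1 by 1.25. Cxcl9, the interferon-gamma-induced ligand of CXCR3, read 8.34, 5.87 and 5.54 and 9.41, 8.77 and 9.57 (2.67 ± 0.55, adjusted p 0.0117), with WT replicate 1 far above the other WT arrays; its call did not hold. Of 15 measured CXC chemokines 8 rose and 0 fell, 6 held, and 7 were called without WT replicate 3, with a median of 0.75. CC chemokines were less firm: 4 of 18 rose, among them Ccl5 (1.62) and Ccl2 (1.29), 1 fell, Ccl27a (-0.50), and none of these calls held. Rises numbered 2 on omission of IL10KO replicate 2 or WT replicate 3, 1 on that of IL10KO replicate 3 and 0 on that of WT replicate 2. Falls numbered 2 on omission of IL10KO replicate 3 and 0 on that of IL10KO replicate 1 or any 1 WT array.

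The Cxcl2 promoter is shown for its pair of matches to GGNNTTTCC, a form of the NF-kB element.
Cxcl2 (chr5:90903649-90903898, plus strand): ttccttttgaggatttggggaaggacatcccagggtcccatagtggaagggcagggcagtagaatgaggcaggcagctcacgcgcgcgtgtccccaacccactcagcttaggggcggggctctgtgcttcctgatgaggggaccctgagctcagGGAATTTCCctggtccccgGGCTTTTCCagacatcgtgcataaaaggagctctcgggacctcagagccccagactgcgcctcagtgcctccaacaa
The first match begins 96 bases before the start. Of 6 risen CXC chemokines whose promoter was found, 4 carry these letters (Cxcl1, Cxcl2, Cxcl3 and Cxcl9), as do 3 of 6 acute-phase genes, 1 of 20 neutrophil genes and 0 of 8 metalloproteinase genes that rose, against 4.93% of all promoters. Cxcl1, Cxcl2 and Cxcl3 are close relatives in sequence and so not independent of each other. The letters were chosen and shortened after seeing the data, so these shares are no test. A gene counts if any of its promoters matches, whereas the share of all promoters counts each promoter.

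Interleukin-1 family genes rose as ligands and receptors. Il1b, the secreted pyrogen, read 6.33, 4.97 and 4.64 in WT and 7.82, 9.71 and 8.79 in IL10KO (3.46 ± 0.44, adjusted p 0.000548), with WT replicate 1 above the other WT arrays. Il1a, its cell-bound relative, read 3.37, 3.40 and 3.35 and 4.65, 5.76 and 5.35 (1.88 ± 0.23, adjusted p 0.000488). Il1f9, which encodes interleukin-36 gamma, an epithelial ligand, read 2.75, 2.90 and 2.74 and 4.01, 4.98 and 5.10 (1.90 ± 0.23, adjusted p 0.000351). Il1a and Il1f9 were dim in all WT arrays, and all 3 ligands were higher in every knockout array. Il1r2, the decoy receptor that binds interleukin-1 without signalling, rose by 1.95 ± 0.34, adjusted p 0.00416, and Il1r1, the signalling receptor, by 1.02 ± 0.17, adjusted p 0.00333. Of 23 measured genes of the interleukin-1 list 9 rose and 0 fell. Of the rises 6 held, and 7 were called without WT replicate 3. Casp4, the caspase that senses intracellular lipopolysaccharide, is not in that list. It read 6.69, 6.21 and 6.80 and 7.44, 8.22 and 8.07 (1.34 ± 0.21, adjusted p 0.00272).

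In the interleukin-6 family, Il11, a stromal cytokine, read 4.13, 4.09 and 3.81 in WT and 5.41, 6.36 and 6.13 in IL10KO (1.96 ± 0.22, adjusted p 0.000254). Il6 read 2.53, 2.56 and 2.49 and 3.09, 4.70 and 3.98 (1.39 ± 0.28, adjusted p 0.00902), dim in all WT arrays and in IL10KO replicate 1. Socs3, induced by STAT3 and inhibiting it, read 6.19, 5.92 and 5.82 and 6.94, 8.19 and 7.43 (1.55 ± 0.27, adjusted p 0.00462); a second, dimmer probe set of Socs3 differed by 0.64. Cebpb, the transcription factor C/EBP beta, read 6.22, 6.25 and 6.37 and 7.20, 7.52 and 7.32 (1.06 ± 0.15, adjusted p 0.00113), and Junb rose by 0.95 ± 0.15, adjusted p 0.00225. Receptor subunits went both ways, with Osmr at 0.90 and Lifr at -0.79, neither of which held. Of 24 measured genes 10 rose and 1 fell, 5 rises held, and the rises were 6 without IL10KO replicate 3 and 5 without WT replicate 2.

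Tnf, tumour necrosis factor, read 6.09, 5.40 and 5.35 in WT and 6.86, 7.01 and 6.73 in IL10KO (1.25 ± 0.20, adjusted p 0.00312). Of 23 genes of the NF-kB target and feedback list 4 rose, all held, and 0 fell: Ier3, an early survival gene (2.05), Socs3, Tnf and Zc3h12a, the RNase Regnase-1 that degrades cytokine transcripts (1.04). In the interleukin-17 and interleukin-23 list 2 of 25 rose, Zc3h12a and Csf3 (0.79), the gene of granulocyte colony-stimulating factor. The cytokine genes of this axis did not pass the test: Il17a differed by 0.32 (adjusted p 0.32), Il22 by 0.36 (adjusted p 0.191) and Il23a by 0.04 (adjusted p 0.91), at signals where all arrays were dim or low. In the list of the interleukin-10 family and its receptors Il10 and Il20ra (0.59) were the 2 calls among 14, and the call of Il20ra ended without any 1 of IL10KO replicates 2 and 3 and WT replicates 1, 2 and 3.

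Macrophage genes rose in part. Chil3, the chitinase-like protein Ym1, read 2.84, 3.43 and 3.27 in WT and 6.99, 6.69 and 5.21 in IL10KO (3.12 ± 0.35, adjusted p 0.000223), lowest among knockout arrays in replicate 3. Arg1, arginase 1, read 4.75, 4.92 and 4.73 and 6.12, 7.55 and 7.87 (2.38 ± 0.33, adjusted p 0.00107), lowest in replicate 1. Nos2, inducible nitric oxide synthase, which uses the same substrate, read 5.76, 4.24 and 4.83 and 7.95, 7.71 and 7.10 (2.65 ± 0.31, adjusted p 0.000332). Both arginine-consuming enzymes were therefore higher in all knockout arrays. Fcgr1, a high-affinity IgG receptor, rose by 1.11 ± 0.18, adjusted p 0.00333, and Marco, a scavenger receptor, by 0.93 ± 0.17, adjusted p 0.0052. Of 30 measured macrophage and monocyte genes 9 rose and 0 fell; 4 held, and the count was 4 without WT replicate 2 and 5 without WT replicate 3.

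Lymphocyte genes gave few calls. Of 22 T and natural killer cell genes 2 rose, Cd3g (1.39) and Cd3d (0.76), which encode chains of the T cell receptor complex; neither held, and omission of IL10KO replicate 2 or WT replicate 1 gave 4 rises, that of IL10KO replicate 1 gave 1, and that of any 1 of the other 3 arrays gave 0. Cd3g read 6.51, 5.24 and 4.52 and 6.36, 6.57 and 7.51, so the groups overlapped at WT replicate 1. Tnfrsf9, the activation marker 4-1BB, read 5.72, 5.35 and 5.20 and 6.76, 6.69 and 6.11 (1.09 ± 0.18, adjusted p 0.00343) and held; it was 1 of 4 rises among 21 helper and regulatory T cell genes, and the count was 1 without IL10KO replicate 3 or WT replicate 3 and 2 without WT replicate 2. Of 19 B and plasma cell genes 2 rose and held, Mzb1 (0.94), a chaperone of antibody secretion, and Prdm1 (0.82), the regulator Blimp-1.

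Interferon-gamma-induced genes depended on 1 array. The mean signal of 20 such genes, among them immunity-related GTPases and guanylate-binding proteins, was 7.23, 5.77 and 5.37 in WT and 6.65, 6.45 and 6.60 in IL10KO. WT replicate 1 lay above all knockout arrays and the other WT arrays below them. Iigp1, a GTPase that attacks pathogen vacuoles, read 9.16, 6.36 and 5.34 and 9.17, 8.76 and 8.37 (1.82 ± 0.69, adjusted p 0.118). Igtp, of the same family, read 8.92, 5.84 and 5.66 and 8.04, 7.37 and 8.05 (1.02 ± 0.69, adjusted p 0.365). In the fit of all arrays 1 of 20 genes of this list rose, Cxcl9; without WT replicate 1 there were 10, and without WT replicate 2 there were 0. MHC class I and class II genes gave 0 calls of 17 and of 14, and 4 and 2 rises without WT replicate 1; their mean signals in WT, 8.77, 7.98 and 7.72 and 8.06, 7.16 and 6.70, were likewise highest in replicate 1. What set WT replicate 1 apart was not tested.

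Type I interferon-stimulated genes did not rise as a group. Of 35 measured, Ifi205 rose (1.21, adjusted p 0.0184) and Oas1g, an oligoadenylate synthetase, fell (-1.27, adjusted p 0.0322), and neither call held. The rises were 0 without IL10KO replicate 3 or WT replicate 2 and 2 without WT replicate 1, and the falls were 0 without IL10KO replicate 3, WT replicate 1 or WT replicate 2 and 2 without IL10KO replicate 2. The median was -0.13 with all arrays, -0.43 without WT replicate 3, where 4 genes fell, and 0.15 without WT replicate 1. Its sign thus turned with the choice of WT arrays. Among 16 genes of cytosolic nucleic acid sensing 1 fell, Mavs (-0.72, adjusted p 0.0273), the mitochondrial adaptor of RNA sensing, and the falls in this list were 0 in each omission other than that of IL10KO replicate 2, where they were 2.

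Of 22 endothelial and adhesion genes 3 rose and 0 fell, with a median of 0.19. Selp, P-selectin, which slows leukocytes on the vessel wall, read 5.38, 5.38 and 5.31 in WT and 6.93, 8.72 and 7.09 in IL10KO (2.23 ± 0.35, adjusted p 0.00241), highest in replicate 2. Vcam1 rose by 1.07 ± 0.20, adjusted p 0.00603. Both held, and the rise of Vwf (0.48) did not. Hdc, histidine decarboxylase, which makes histamine, read 4.11, 3.91 and 4.07 and 4.96, 6.33 and 5.74 (1.65 ± 0.24, adjusted p 0.00165); it stands in the mast cell list and in the neutrophil list. Kit, the receptor of mast cells and of interstitial cells of Cajal, went the other way, at 7.91, 8.15 and 8.16 and 7.08, 7.40 and 7.05 (-0.89 ± 0.15, adjusted p 0.00373).

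Matrix metalloproteinases rose broadly. Mmp13, a collagenase, read 5.75, 5.41 and 5.27 in WT and 8.69, 10.49 and 8.89 in IL10KO (3.88 ± 0.35, adjusted p 4.82e-05). Mmp10, stromelysin-2, read 5.09, 5.17 and 5.32 and 8.26, 9.38 and 8.26 (3.44 ± 0.25, adjusted p 1.06e-05), and Mmp3, stromelysin-1, 3.49, 3.73 and 3.67 and 5.25, 7.84 and 6.02 (2.74 ± 0.44, adjusted p 0.00278). Each was highest in IL10KO replicate 2. Mmp7, matrilysin, an epithelial enzyme that activates defensins, read 5.36, 5.23 and 5.32 and 8.51, 8.03 and 8.44 (3.02 ± 0.16, adjusted p 1.99e-07), with little spread in either group; a dim second probe set of Mmp7 differed by -0.03. Mmp8 and Mmp9 (1.63) rose, as did Timp1 (1.67), an inhibitor of these enzymes. Of 21 measured genes 10 rose (47.6%, against 3.12% of all genes) and 0 fell, 7 held and 9 were called without WT replicate 3, with a median of 0.63.

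Among matrix and repair genes the changes were smaller. Lox, which cross-links collagen, read 5.67, 5.82 and 5.91 in WT and 7.63, 8.04 and 7.79 in IL10KO (2.02 ± 0.19, adjusted p 5.25e-05). Col12a1 (1.04) and Col8a1 (0.95), minor collagens, rose and held, whereas Postn, periostin, fell (-0.86 ± 0.14, adjusted p 0.00267). Of 32 genes of the matrix list 7 rose and 1 fell; the rises were 4 without IL10KO replicate 1, WT replicate 1 or WT replicate 3, and the falls 4 without IL10KO replicate 2 and 3 without IL10KO replicate 3. Plet1, a surface protein of epithelium, read 7.32, 8.16 and 9.16 and 11.47, 11.15 and 11.13 (3.04 ± 0.36, adjusted p 0.000351). Grem1, a secreted antagonist of bone morphogenetic proteins, read 9.07, 9.001 and 9.16 and 9.73, 10.32 and 9.87 (0.90 ± 0.15, adjusted p 0.00324), while Bmp2, one of its targets, fell by 0.75 on the log2 scale. Of 26 growth factor and wound-healing genes 8 rose and 1 fell, and leaving out IL10KO replicate 3 or any 1 WT array gave 5 rises; Sprr1a (2.37), 1 of the 8, also stands in the squamous list.

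Enzymes of lipid mediators and of redox shifted on both sides of their pathways. Hpgd, which inactivates prostaglandin E2, read 10.08, 10.20 and 10.16 in WT and 9.41, 9.39 and 9.26 in IL10KO (-0.79 ± 0.12, adjusted p 0.00226). Pla2g5, a phospholipase that frees arachidonic acid, rose by 1.25 ± 0.22, adjusted p 0.00462. The list of prostaglandin enzymes and receptors had 4 rises and 3 falls of 25. There were 2 rises without IL10KO replicate 2, WT replicate 1 or WT replicate 2, and 1 fall without IL10KO replicate 1, IL10KO replicate 3, WT replicate 1 or WT replicate 2. Hmox1, haem oxygenase 1, read 5.67, 5.43 and 5.85 and 6.44, 7.79 and 7.22 (1.503 ± 0.26, adjusted p 0.0045). Aldh1a3 and Aldh1a1, both enzymes that make retinoic acid, moved in opposite directions: Aldh1a3 read 6.83, 6.82 and 6.65 and 8.51, 10.46 and 9.08 (2.59 ± 0.34, adjusted p 0.000796), and Aldh1a1 read 8.63, 9.23 and 9.02 and 8.02, 7.72 and 7.33 (-1.27 ± 0.20, adjusted p 0.00272).

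Genes of absorptive colonocytes fell in number. Car1, carbonic anhydrase 1, read 11.63, 11.71 and 12.20 in WT and 10.99, 9.60 and 10.09 in IL10KO (-1.62 ± 0.27, adjusted p 0.00333). Slc4a4, the sodium bicarbonate cotransporter, read 9.40, 9.42 and 9.22 and 7.76, 7.98 and 7.21 (-1.70 ± 0.20, adjusted p 0.000359), and Aqp8, a water channel of the surface epithelium, 9.73, 9.57 and 9.62 and 8.09, 8.62 and 8.43 (-1.26 ± 0.16, adjusted p 0.0006). All knockout arrays lay below all WT arrays for these genes. Slc15a1, the peptide transporter PepT1, differed by -1.501 and Slc5a8, a carrier of short-chain fatty acids, by -1.01. Of 44 transport genes 14 fell (31.8%, against 5.01% of all genes) and 2 rose; 9 falls held, and 13 were called without WT replicate 3. Clca4b, a homologue of calcium-activated chloride channel regulators, was the exception, at 8.94, 5.57 and 6.88 and 12.19, 11.88 and 11.86 (4.85 ± 0.79, adjusted p 0.00312), with WT replicate 1 far above the other WT arrays. The other rise was Aqp3 (1.302), and the rises were 1 without WT replicate 1 or 3 and 4 without IL10KO replicate 3.

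Several other genes were among the largest falls. Cpm, carboxypeptidase M, read 9.47, 9.73 and 9.67 in WT and 6.90, 7.72 and 6.99 in IL10KO (-2.42 ± 0.20, adjusted p 1.79e-05). Klb, the co-receptor beta-klotho of endocrine fibroblast growth factors, read 6.75, 7.27 and 6.68 and 4.58, 4.78 and 4.46 (-2.30 ± 0.19, adjusted p 2.07e-05). Gdpd3, a glycerophosphodiester phosphodiesterase, read 8.11, 7.82 and 7.64 and 5.23, 5.57 and 5.84 (-2.31 ± 0.18, adjusted p 1.79e-05). All 3 showed narrow groups with a wide gap between them. Tppp and Tppp3, related tubulin-binding proteins, both fell; Tppp fell by 2.31 and Tppp3 fell by 2.40 on the log2 scale. Gsdmc2 and Gsdmc3, gasdermins of the colon epithelium, read 10.45, 10.14 and 10.87 and 10.82, 10.71 and 10.98 in WT and 7.55, 8.24 and 7.91 and 7.71, 8.69 and 8.49 in IL10KO, with differences of -2.59 ± 0.33 (adjusted p 0.00056) and -2.54 ± 0.26 (adjusted p 0.000107). In the list of gasdermins, inflammasome sensors and death pathways they were the 2 falls of 28 genes, beside 4 rises that included Casp4 and Ripk3 (1.05), a kinase of necroptosis.

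Brush border and goblet cell genes showed selective falls. Mep1a, the protease meprin alpha, read 9.07, 9.49 and 9.35 in WT and 8.21, 8.26 and 8.30 in IL10KO (-1.04 ± 0.18, adjusted p 0.00375), and Cdhr2, a cadherin that links microvilli, fell by 0.75. Of 28 brush border and enterocyte enzyme genes 7 fell and 2 rose, and the falls were 4 without IL10KO replicate 3 and 3 without WT replicate 1 or 2; the rises were 1 without IL10KO replicate 1 or any 1 WT array. Alpl, tissue-nonspecific alkaline phosphatase, was a rise (1.24 ± 0.20, adjusted p 0.00295), although a second probe set of it differed by 0.43 (adjusted p 0.313 over all probe sets). Clca1, a secreted protease that processes mucus, read 12.52, 12.63 and 12.83 and 10.998, 11.25 and 11.34 (-1.47 ± 0.14, adjusted p 5.69e-05), and Fcgbp, a mucus protein, 11.82, 12.18 and 12.54 and 10.87, 11.01 and 10.90 (-1.25 ± 0.17, adjusted p 0.00106). Muc2 did not pass the test (-0.24, adjusted p 0.296), nor did Zg16 (-0.21, adjusted p 0.38), a lectin of mucus, or Tff3 (-0.13, adjusted p 0.71), a trefoil peptide. The goblet list of 32 had 5 falls, 2 without WT replicate 2 or without WT replicate 3, and 1 rise (2 without IL10KO replicate 2 or WT replicate 3), St3gal4, a sialyltransferase, which read 5.51, 6.18 and 6.85 and 9.23, 9.52 and 9.49 (3.24 ± 0.29, adjusted p 4.54e-05). Tight junction genes went both ways, with Ocln, occludin, at -0.89 (adjusted p 0.00355) and Cldn4 at 1.10 (adjusted p 0.0259), of which the latter did not hold.

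Conjugating enzymes of foreign compounds fell in number, while cytochrome P450 enzymes were called on both sides, 4 higher and 3 lower of 35 with a median of -0.01. The P450 rises numbered 1 without IL10KO replicate 2 or 3 or WT replicate 1 or 3 and 2 without WT replicate 2, and the falls 6 without IL10KO replicate 2. Cyp4f18 rose and held (1.03 ± 0.18, adjusted p 0.00482). Cyp2c55, a cytochrome P450 of the colon, read 10.28, 10.97 and 11.61 in WT and 8.94, 6.86 and 8.54 in IL10KO (-2.83 ± 0.42, adjusted p 0.00172); a dimmer probe set of it differed by -0.24. Abcb1a, the efflux pump P-glycoprotein, read 10.26, 10.57 and 10.44 and 9.32, 9.22 and 8.44 (-1.43 ± 0.20, adjusted p 0.0012). Gstm3, a glutathione transferase, read 8.48, 8.14 and 8.54 and 7.16, 7.33 and 6.57 (-1.37 ± 0.21, adjusted p 0.00197), and Sult1c2, a sulfotransferase, 7.83, 8.13 and 8.13 and 6.38, 7.17 and 6.74 (-1.27 ± 0.18, adjusted p 0.00128). Knockout and WT arrays did not overlap for any of the 4, of which Cyp2c55 was picked for not overlapping. Of 38 conjugation genes and their nuclear receptors 15 fell (39.5%, against 5.01% of all genes) and 0 rose, with Nr1i2, the pregnane X receptor, among the falls (-0.67); 9 held, and 9 were called without IL10KO replicate 1, WT replicate 1 or WT replicate 3. Other metabolic lists gave fewer calls. In cholesterol and fatty acid synthesis 4 of 24 fell, among them Dhcr7 (adjusted p 0.00157), which makes cholesterol, and Fads2 (-0.79), a desaturase, and 2 were called without WT replicate 2. Fatty acid oxidation had 4 falls of 33, none of which held: there were 0 without WT replicate 1 or 2, 1 without IL10KO replicate 1 or 3 and 2 without WT replicate 3.

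Smooth muscle genes had the largest share of falls of the lists counted. Des, desmin, the intermediate filament of muscle, read 10.82, 10.67 and 11.07 in WT and 9.65, 10.03 and 10.002 in IL10KO (-0.96 ± 0.15, adjusted p 0.0029). Myh11, smooth muscle myosin, read 11.72, 11.90 and 11.74 and 11.10, 11.24 and 10.74 (-0.76 ± 0.14, adjusted p 0.00707). Synpo2, an actin-bundling protein, read 8.75, 8.90 and 8.99 and 7.46, 7.87 and 7.74 (-1.19 ± 0.16, adjusted p 0.000995), and Chrm2, the muscarinic receptor of gut muscle, 8.47, 8.35 and 8.55 and 7.09, 7.68 and 7.09 (-1.17 ± 0.19, adjusted p 0.00291). The fall was modest in each but the groups were narrow and apart. Pcp4, a calmodulin-binding peptide, fell the most (-1.35 ± 0.17, adjusted p 0.000531). Of 34 measured genes 22 fell (64.7%, against 5.01% of all genes) and 0 rose, with a median of -0.69; 14 held, and 17 were called without WT replicate 3. The mean signal over the list was 8.95, 8.996 and 9.11 in WT and 8.16, 8.46 and 8.23 in IL10KO, and the other 6 arrays lay at 8.88 to 9.21, so the 3 IL10KO arrays were the lowest of all 12.

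Genes of the enteric nervous system fell alongside. Snap25, a protein of synaptic vesicle fusion, read 7.59, 7.88 and 7.97 in WT and 6.10, 6.74 and 6.49 in IL10KO (-1.37 ± 0.18, adjusted p 0.000934). Syt1, a calcium sensor of vesicle release, fell by 1.04, and Stmn2, of axons, by 0.99. Ano1, the chloride channel that paces gut muscle in interstitial cells of Cajal, read 10.61, 10.46 and 10.61 and 8.83, 9.84 and 9.37 (-1.21 ± 0.21, adjusted p 0.00364), and Kit, of the same cells, fell as given above. Of 33 measured genes 11 fell and 0 rose; 6 held, and the count was 7 without IL10KO replicate 1, 6 without WT replicate 2 and 7 without WT replicate 3. Among hormone-producing cells Insl5, a peptide of colonic L cells, read 9.34, 9.23 and 9.68 and 7.81, 8.003 and 8.67 (-1.25 ± 0.21, adjusted p 0.00328), and Tph1, which makes serotonin in enterochromaffin cells, fell by 0.87. The list of enteroendocrine and tuft cells had 4 falls and 1 rise of 24. The falls were 2 without IL10KO replicate 1, WT replicate 2 or WT replicate 3, and 2 falls held. The rise, which also held, was Nts (0.77 ± 0.15, adjusted p 0.00794), and rises were 2 without IL10KO replicate 2.

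Of 27 Hox and other genes of position along the colon 2 rose and 2 fell. Rises numbered 4 without IL10KO replicate 2 and 1 without WT replicate 1 or 2, and falls 1 without IL10KO replicate 1 or WT replicate 1 or 2. Hoxb13, of the distal colon, read 8.08, 8.20 and 7.995 in WT and 7.32, 7.65 and 7.57 in IL10KO (-0.58 ± 0.13, adjusted p 0.0181), and Hoxb6, of more proximal gut, read 4.94, 4.99 and 5.19 and 5.78, 5.75 and 5.72 (0.71 ± 0.15, adjusted p 0.0143). Neither call held. Osr2, a transcription factor, rose and held (1.16 ± 0.19, adjusted p 0.00345), and the fall of Insl5, given above and also in this list, held. The segment sampled was not in the labels used here, and the part of position in the epithelial differences was not tested.

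Clock genes changed in opposite directions. Arntl (BMAL1) read 9.13, 9.65 and 9.24 in WT and 7.36, 8.07 and 7.86 in IL10KO (-1.58 ± 0.20, adjusted p 0.000531), and its partner Npas2 read 9.38, 9.37 and 9.55 and 7.61, 8.38 and 7.56 (-1.58 ± 0.22, adjusted p 0.00103). Ciart, a repressor of that pair, rose (0.91 ± 0.15, adjusted p 0.0033). The knockout arrays were all lower for the activators and all higher for the repressor. Of 17 clock genes 2 rose and 4 fell; 1 rise and 2 falls held, and the falls were 2 without IL10KO replicate 1, WT replicate 2 or WT replicate 3, and the rises 1 in each omission other than that of IL10KO replicate 3. The hour of collection was not in the labels used here. Of 27 immediate-early and heat shock genes 4 fell and 2 rose, and the falls were 2 without IL10KO replicate 1 or WT replicate 3; 1 fall held, that of the chaperone Hsph1, at 7.80, 7.99 and 8.67 and 6.33, 6.75 and 7.13 (-1.42 ± 0.25, adjusted p 0.00509). The call of Hspa1b (-1.64, adjusted p 0.0143) did not hold.

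Cell division and respiration gave no calls. Of 35 cell cycle genes and 29 genes of the respiratory chain and tricarboxylic acid cycle 0 passed limma's adjusted threshold, and their medians were 0.04 and -0.13; the former was -0.02 with each array centred on its median. In the fits that left out 1 array at most 1 cell cycle gene was called in either direction, and for respiration at most 1 rise and 2 falls. At an unadjusted p under 0.05 5808 of all 22180 genes would have passed.

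**Figure D4:**
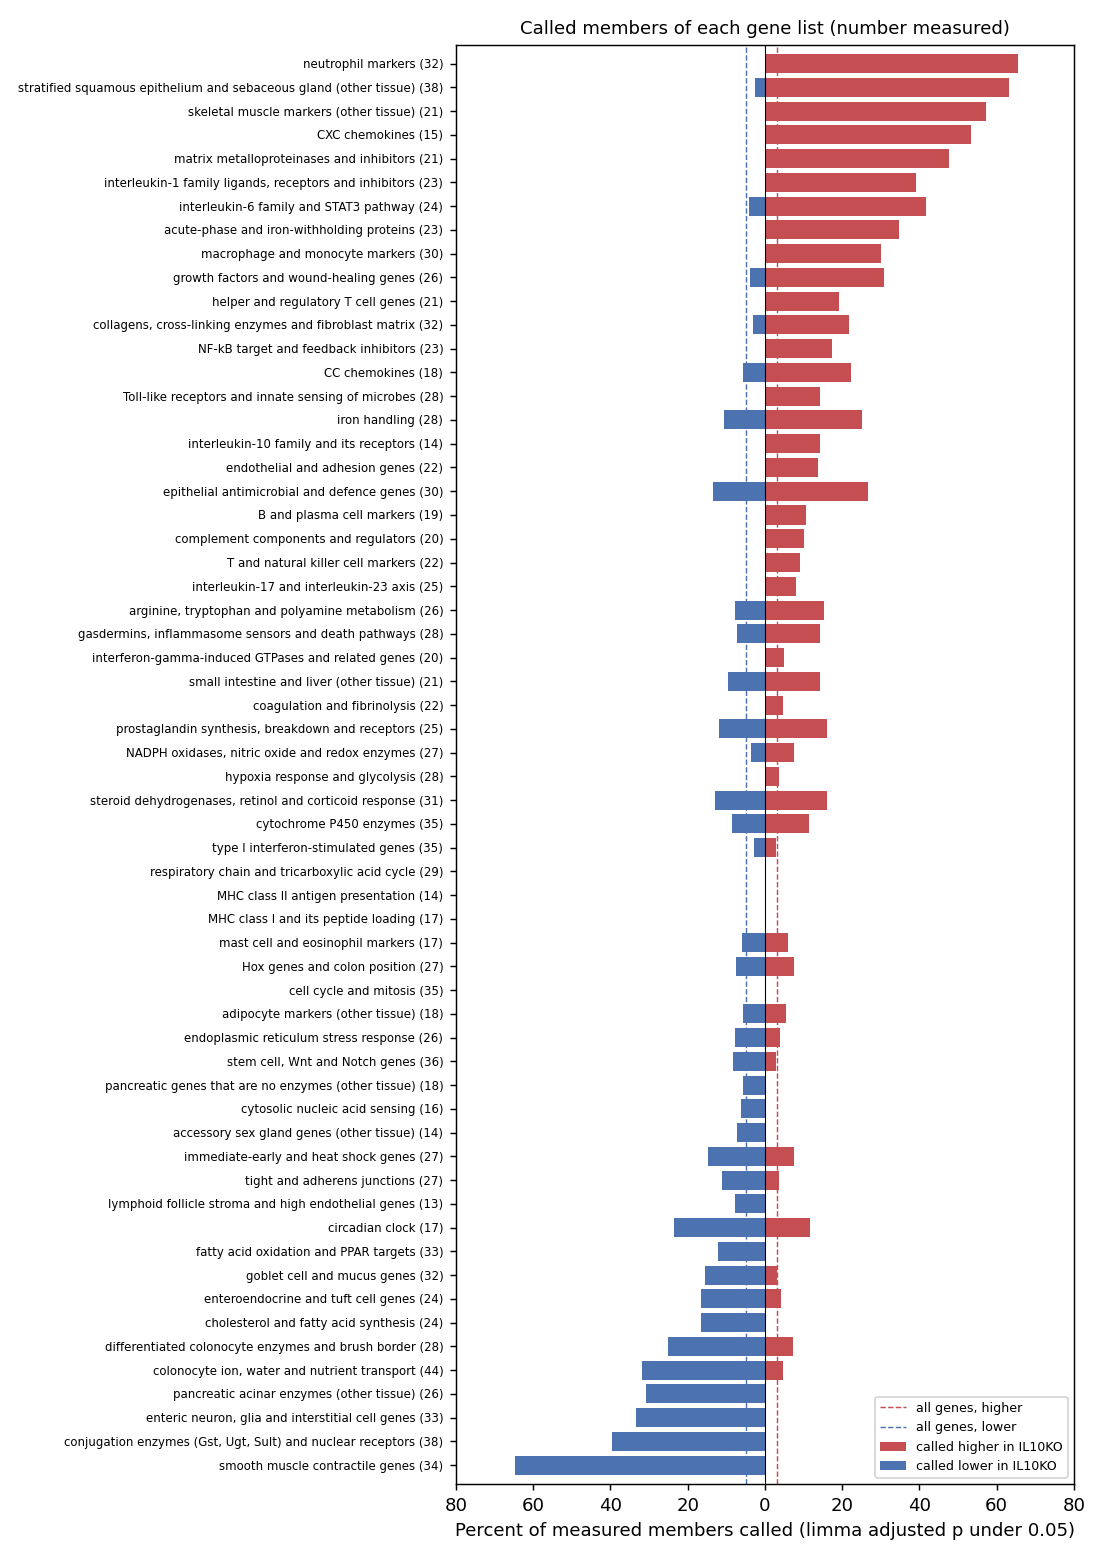
Share of measured members of each gene list (rows, number measured in brackets) called higher (red, to the right) or lower (blue, to the left) in IL10KO, in percent on the x axis, with dashed lines at the shares of all genes, 3.12% and 5.01%. Neutrophil genes (21 of 32) and squamous genes (24 of 38) have the highest shares of rises, and smooth muscle genes (22 of 34) and conjugation genes (15 of 38) the highest shares of falls among lists of the colon.

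Genes of stratified squamous epithelium and sebaceous gland, which line the anal canal and skin and not the colon, rose in IL10KO, and IL10KO replicate 1 stood between WT and the other knockout arrays. Krt4, a keratin of stratified epithelium, read 4.26, 4.18 and 4.16 in WT and 6.07, 9.28 and 8.58 in IL10KO (3.77 ± 0.71, adjusted p 0.00668). Elovl3, a fatty acid elongase of sebaceous gland, read 3.18, 3.11 and 3.27 and 4.94, 8.78 and 9.42 (4.52 ± 0.78, adjusted p 0.00394), and Krt14, of basal cells, 4.50, 4.56 and 4.95 and 5.76, 8.08 and 7.73 (2.52 ± 0.47, adjusted p 0.00609). IL10KO replicate 1 was the lowest of its group for each of the 24 risen genes of this list. Of 38 measured genes 24 rose and 1 fell, and 13 rises held; the rises were 14 without IL10KO replicate 3, 15 without any 1 WT array and 8 without IL10KO replicates 2 and 3 together. Krt6a, of stressed and wounded squamous cells, read 3.46, 2.91 and 3.23 and 5.03, 8.10 and 7.58 (3.70 ± 0.57, adjusted p 0.00225).

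Skeletal muscle genes rose as well. Tnni2, fast skeletal troponin I, read 5.47, 6.22 and 5.84 in WT and 7.10, 7.07 and 8.20 in IL10KO (1.62 ± 0.30, adjusted p 0.00609), and Atp2a1, the calcium pump of fast fibres, 4.60, 4.53 and 4.45 and 5.96, 5.98 and 7.11 (1.82 ± 0.37, adjusted p 0.011). IL10KO replicate 3 was the highest for both. Of 21 measured genes 12 rose and 2 held; the count was 4 without IL10KO replicate 3, 3, 4 and 7 without WT replicates 1, 2 and 3, and 2 without IL10KO replicates 2 and 3 together.

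Genes of the acinar list accounted for several of the largest falls. Pnliprp1, a pancreatic lipase-related protein, read 9.73, 12.23 and 5.64 in WT and 4.21, 3.96 and 4.10 in IL10KO (-5.11 ± 1.06, adjusted p 0.0117). Clps, colipase, read 9.70, 11.94 and 9.77 and 6.19, 5.76 and 5.87 (-4.53 ± 0.47, adjusted p 0.00014), and Cpb1, carboxypeptidase B1, 9.73, 11.99 and 3.60 and 3.57, 3.39 and 3.33 (-5.01 ± 1.37, adjusted p 0.0391). The spread within WT reached many-fold, and WT replicate 3 was at the knockout level for Cpb1 but not for Clps. Of 26 genes 8 fell and 0 rose, 5 held, and the falls were 20 without WT replicate 3 and 5 without WT replicate 2. Pnliprp2 (-4.58) and Sycn (-2.48), syncollin, fell too. Sycn read 11.21, 12.37 and 12.04 in WT and 8.64, 9.85 and 9.70 in IL10KO. Its means were 11.999 in SKO and 11.40 in DKO. The SKO and DKO means were 8.85 and 7.84 for Clps and 7.91 and 6.11 for Pnliprp2, above all IL10KO arrays. For these genes high signal was thus not confined to WT replicates 1 and 2. The smooth muscle, conjugation and transport falls numbered 3, 4 and 3 without WT replicates 1 and 2 together, when WT rests on the array labelled replicate 3 alone and 113 genes in all are called lower.

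Some large differences lost their call without WT replicate 3. The 3 largest called differences that lost their call without it were Krt10, a keratin of cornified epithelium (3.09 ± 0.73, adjusted p 0.0218 and 0.0549 without that array), Defb6, a beta-defensin (3.05 ± 0.85, adjusted p 0.0435 and 0.0928), and Hamp, hepcidin, the hormone of iron retention (-2.62 ± 0.67, adjusted p 0.0297 and 0.106). Hamp read 5.93, 4.78 and 7.66 in WT and 2.24, 4.14 and 4.14 in IL10KO, so its highest signal was in the array that was left out. The difference without that array was 3.15 for Krt10 and 3.16 for Defb6, no smaller than with it, and -1.85 for Hamp. Among genes of inflammation whose calls held, the difference without WT replicate 3 was 6.40 for Saa3, 6.48 for Reg3g, 4.43 for S100a8, 3.78 for Mmp13 and 3.12 for Il1b. A call that held passes this omission by definition. Other named immune genes lost their call without that array, among them Ccl5, Ccl2, Cd3g, Clec7a and Ifi205. The differences of these genes were also smaller without it.

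The same loss of IL-10 was measured without STING, as DKO minus SKO, in 6 arrays that by label share none with the comparison above. WT replicate 3, on the side labelled as having STING, had Sting1 at 4.56 and correlated at 0.997 with SKO replicate 1. Whether its label is right was not tested, so the 2 comparisons are separate by label only. In DKO minus SKO 10 genes (0.0451%) passed the adjusted threshold. Of these 8 also passed here, which is 80% of those 10 genes and 0.443% of the 1805, all with the same sign, and they were chosen for this after their values were seen. St3gal4 rose by 3.24 with STING and 3.50 without, and Nxpe4 by 2.35 and 3.43. Casp4 rose by 1.34 and 2.004, Cbr3, a carbonyl reductase, by 1.54 and 1.74, Ceacam10, an adhesion molecule, by 0.94 and 1.38, and the long noncoding RNA Dubr by 0.63 and 1.10. Gdpd3 differed by -2.31 and -1.95, and Hddc3, a nucleotide hydrolase, by -1.10 and -1.40. Clca4b, called only with STING, still differed by 3.62 without it, and the difference between these 2 values, -1.23 ± 1.12 (adjusted p 0.594), did not pass.

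The rises that held were mostly near 0 without STING. Of the 240 rises that held, 139 (57.9%) were above 0 in DKO minus SKO, against 43.5% of all genes, and their median was 1.38 with STING and 0.04 without. Of the 344 falls that held 264 (76.7%) were below 0 there, against 56.5% of all genes, with medians of -0.98 and -0.12. The genes were chosen by their difference with STING, so some shrinking towards 0 follows from the choice. Tested over all genes, the difference of the IL-10 effect, (DKO minus SKO) minus (IL10KO minus WT), was past the threshold for 143 genes (0.645%). Of these 136 were also called in IL10KO minus WT, and in all 136 the value without STING was smaller or of opposite sign. The contrast contains the called difference with its sign reversed, so genes called in both tend to this outcome by the choice. Saa3 differed by 6.39 with STING and 0.17 without (-6.22 ± 0.27, adjusted p 4.95e-08), Reg3g by 6.56 and 0.10 (-6.46 ± 0.39, adjusted p 2.69e-06), and Mmp7 by 3.02 and -0.31 (-3.34 ± 0.22, adjusted p 6.63e-06). The count of 143 became 168 without WT replicate 3. It was 376 without IL10KO replicate 2 and 316 without IL10KO replicate 1. It was between 50 and 75 without DKO replicate 1 or 2, WT replicate 1 or 2, or any 1 SKO array.

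By list, the difference of effect passed for 8 of 32 neutrophil genes, 7 of 23 acute-phase genes, 6 of 30 epithelial defence genes, 4 of 21 metalloproteinase genes, 5 of 17 clock genes, 3 of 44 transport genes and 2 of 34 smooth muscle genes, beside 0.645% of all genes. In DKO minus SKO the medians of these lists were 0.03, -0.04, 0.08, -0.09, -0.07, -0.02 and -0.07. Other lists had higher medians without STING than with it. Interferon-gamma-induced genes had 0.60 without and 0.40 with STING, and type I interferon-stimulated genes 0.51 and -0.13. The values were 0.58 and 0.22 for MHC class II and 0.52 and 0.33 for class I. They were 0.38 and 0.12 for B and plasma cell genes and 0.36 and 0.04 for cell cycle genes. For squamous and for skeletal muscle genes 0 of 38 and 0 of 21 passed the limma test of the difference of effect, but their medians were -0.04 and 0.31 in DKO minus SKO, against 1.39 and 1.15 with STING. Elovl3, for example, differed by 4.52 with STING and -0.08 without (-4.60 ± 1.10, adjusted p 0.0841).

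**Figure D5:**
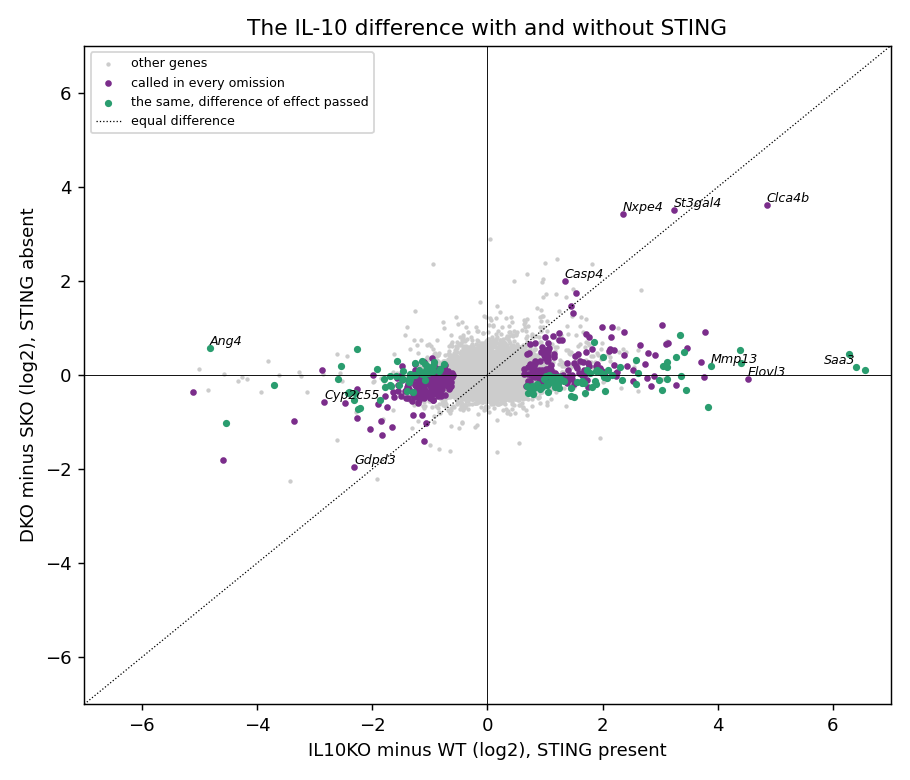
Each gene's difference IL10KO minus WT (x axis, log2, STING present) against DKO minus SKO (y axis, log2, STING absent); genes whose call held are purple, those of them whose difference of effect passed are green, other genes are grey, and the dotted line marks equal differences. St3gal4 (3.24 and 3.50) and Gdpd3 (-2.31 and -1.95) lie near the dotted line, while Saa3 (6.39 and 0.17) and Ang4 (-4.82 and 0.57) lie near the horizontal axis.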

How the data were processed

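Total RNA of colon, extracted with the QIAGEN RNeasy kit per the labels, was hybridised to 12 Affymetrix mouse whole-transcript arrays, 3 per genotype. The authors deposited log2 signals for 41345 probe sets. The submitters' processing notes name Affymetrix Expression Console (1.3.1.187); which summary method it ran is not stated, and the values were used as deposited. Of 25335 probe sets in the platform annotation, 23521 had 1 symbol, and 1814 with several were left unnamed. The brightest probe set stood for each of 22180 genes. limma 3.58.1 in R 4.3.3 was fitted on all 12 arrays with a mean per genotype (8 residual and 5.56 prior degrees of freedom), with 2-sided tests and Benjamini-Hochberg adjustment over all genes at 0.05. The script was tested on simulated data.

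Named genes were the 15 largest rises and falls that held with non-overlapping groups, up to 4 called members per list (those that held first), Il10, Sting1, the 3 largest calls lost without WT replicate 3 and the 3 largest differences of effect; other list members appear as examples. Predicted genes, small RNAs and olfactory genes were left out. The members and lists were chosen with earlier results of these data known, and 1531 of 1684 list entries were measured. Alternatives changed the scaling, filter, probe set rule, variance model and arrays used; 3 joint omissions of arrays were added after seeing the data. Promoters came from RefSeq on GRCm38.p6, and their motifs were chosen, and the NF-kB-type one shortened, after seeing the data.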

Additional observations from a re-analysis of the deposited data

Results flagged for a closer look

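For 50 named genes the IL-10 difference was not the same with and without STING by the interaction term of the limma fit (adjusted p under 0.05 over all genes). The values given are (DKO minus SKO) minus (IL10KO minus WT) on the log2 scale, so a negative value means a lower IL-10 difference without STING and a positive value a higher one. Many were named for their difference with STING, a term of this contrast. All arrays were used, WT replicate 3 among them.

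Among antimicrobial and acute-phase genes the values were Reg3g (-6.46), Saa3 (-6.22), Reg3b (-5.82), Hp (-3.85), Lrg1 (-3.38), Lcn2 (-3.09), Ltf (-2.86), Pla2g2a (-2.49) and Lyz1 (-2.13), all below 0. The defence ribonuclease Ang4 was the exception in that group, with 5.39. Genes of neutrophils and macrophages gave Retnlg (-4.52), S100a8 (-4.15), S100a9 (-2.94), Chil3 (-3.21), Stfa2l1 (-2.83), Clec4e (-2.15) and Hdc (-1.78). Cytokines, chemokines and their regulators gave Ppbp (-2.94), Il11 (-1.88), Il1a (-1.80), Il1f9 (-1.78), Cxcl2 (-1.69), Ier3 (-2.39), Junb (-1.22) and Cebpb (-1.07). Genes of matrix breakdown, repair and metabolism gave Mmp10 (-3.77), Mmp13 (-3.69), Mmp7 (-3.34), Lox (-2.07), Col12a1 (-1.25), Plaur (-1.73), Aldh1a3 (-2.78), Alpl (-1.52) and Ddit4 (-1.10).

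Values above 0, at genes that fell with STING, were found at Gsdmc3 (2.74), Gsdmc2 (2.50), Cpm (2.04), Tppp3 (2.04), Tppp (1.78), Klb (1.92), Slc4a4 (1.48), Clca1 (1.38) and Mep1a (1.23), and in the smooth muscle list at Synpo2 (1.298) and Pcp4 (1.27). Of these, Gsdmc3, Mep1a and Synpo2 were above 0 in DKO minus SKO, at 0.19, 0.19 and 0.11. Clock genes went to both sides, with Arntl (1.87) and Npas2 (1.57) above 0 and Dbp (-1.54) and Ciart (-1.21) below 0. Clps, of the acinar list, gave 3.51. Its mean was 8.85 in SKO and 7.84 in DKO, beside the WT and IL10KO values given above.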

How the results depend on the processing

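No named gene past the threshold changed direction under any alternative run, and what changed was the number of calls. Where groups do not overlap, leaving out arrays cannot turn a direction. With all arrays 1805 genes were called, 693 higher and 1112 lower. Fitting only the IL10KO and WT arrays gave 704 (267 higher and 437 lower), and asking for at least a 2-fold difference gave 501 (275 and 226). Centring each array on its median gave 451 higher genes. Leaving out single arrays gave 783 to 3070 calls, 308 to 1093 higher and 475 to 1977 lower. The joint omissions gave 2923 calls (1240 and 1683) without IL10KO replicates 2 and 3, 232 (119 and 113) without WT replicates 1 and 2, and 1013 (447 lower) without WT replicate 3, IL10KO replicate 1 and SKO replicate 2; an arm left with 1 array was assumed to vary like the other groups. The difference of the IL-10 effect, called for 143 genes, gave 736 with array weights, 689, 16 and 245 in the joint omissions in the same order, and 50 to 376 without single arrays. The omissions rest on fewer arrays; other causes were not tested. Of 182 named genes 33, 48 and 36 lost the call when WT replicates 1, 2 and 3 were left out in turn, and 26, 9 and 37 when IL10KO replicates 1, 2 and 3 were. No paired analysis was possible because the replicate numbers follow the order of the samples and the labels pair no arrays. The table holds no background signal, so low signals could not be called absent.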

Other observations

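Enzymes of steroid and retinoid metabolism were called on both sides, 5 higher and 4 lower of 31, with 3 of each holding when single IL10KO and WT arrays were left out. Hsd11b1, which regenerates active corticosterone, differed by 0.88 (adjusted p 0.00432) in the limma fit, and Rdh10, which makes retinaldehyde, by 0.81 (adjusted p 0.00865). Hsd17b2, which inactivates oestradiol and testosterone, differed by -0.998 (adjusted p 0.00356). Among 36 stem cell, Wnt and Notch genes Sox9, a transcription factor of crypt cells, differed by -0.82 (adjusted p 0.0111) and was the 1 call that held; Lgr5, the marker of crypt base stem cells, did not pass, at -0.54 (adjusted p 0.158).

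In the list of sensors of microbes Lbp, which hands lipopolysaccharide to CD14, differed by 1.34 (adjusted p 0.00524) in the limma fit and Clec7a, the beta-glucan receptor dectin-1, by 1.75 (adjusted p 0.0119); 4 of 28 genes rose, and 2 did without WT replicate 2 or WT replicate 3. Both arginases were higher, with Arg2, the mitochondrial form, at 1.41 (adjusted p 0.00186). Among 28 iron genes 7 rose and 3 fell; the falls, led by Hamp, were 0 without IL10KO replicate 1 or WT replicate 3 and 1 without IL10KO replicate 3, WT replicate 1 or WT replicate 2.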
